A study of Mus musculus with 6 samples.

Results

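The Ly6 surface antigens described here are 4 genes, Ly6a, Ly6c1, Ly6c2 and Ly6e, taken by symbol from the 54232 genes of the deposited read count table. They were measured by RNA-seq in 6 libraries of total RNA from GFP+ regulatory T cells (Treg cells) of mouse spleen. The wild-type group (WT) and the group with a conventional knockout of BAF60b (KO) had 3 libraries each. BAF60b, encoded by Smarcd2, is a subunit of the SWI/SNF chromatin remodelling complex, and a conventional knockout is carried by all cells of the animal, Treg cells and other cells alike. The labels give no age, sex, strain or description of the GFP allele. Nothing in them ties a numbered library to a mouse of its own. The spread behind each p-value is that between libraries, part of which may be technical. In bulk RNA, fewer cells that express a gene and less of its RNA per cell cannot be told apart.

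Ly6 proteins are small surface proteins with a three-finger fold built on disulfide bonds, and most, including the products of these 4 genes, are tethered to the outer membrane by a glycosylphosphatidylinositol (GPI) anchor. Ly6a encodes Sca-1, a marker of haematopoietic stem cells that is also carried by activated and memory T cells. Ly6c1 and Ly6c2 encode the 2 forms of the Ly6C antigen, which is found on monocytes and on subsets of T cells and is used to separate resting from activated Treg cells. Ly6e encodes a broadly expressed member that was first known as a thymocyte antigen and that limits or aids the entry of different viruses. Genes of this family, Ly6a and Ly6e in particular, are known to be induced by interferons.

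The 4 genes lie in 1 cluster on chromosome 15 (mm10), and their annotated exons overlap those of no other gene. Ly6e (ENSMUSG00000022587) spans 74955051 to 74959905 on the plus strand. Ly6a (ENSMUSG00000075602) spans 74994877 to 74998031, Ly6c1 (ENSMUSG00000079018) spans 75044018 to 75048830 and Ly6c2 (ENSMUSG00000022584) spans 75108158 to 75111970, all 3 on the minus strand. Counted from the lowest coordinate of Ly6e, those of Ly6a, Ly6c1 and Ly6c2 lie 39.8, 89.0 and 153.1 kb further along.

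How far reads of these genes can be told apart depends on their sequence. The coding sequences of Ly6c1 and Ly6c2 (GENCODE release M21, the first-numbered transcript of each gene) were identical at 384 of 393 bases, or 97.7%. The stretch from coding base 6 to 65 holds 6 of the 9 differences and is shown because it is where the 2 coding sequences differ most; capitals mark the differing bases.

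Ly6c1: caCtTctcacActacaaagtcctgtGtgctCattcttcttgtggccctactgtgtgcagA
Ly6c2: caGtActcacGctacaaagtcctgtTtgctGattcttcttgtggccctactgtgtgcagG

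The longest run that the 2 coding sequences share without a difference was 188 bases. Of the 50-base windows of the whole Ly6c1 transcript 36.7% also occurred in a transcript of another gene, Ly6c2 or Ly6a, and the share was 33.0% for Ly6c2. It was 8.05% for Ly6a, which shares windows with Ly6i, I830127L07Rik, Ly6c1 and Ly6c2, and 0 of 2232 windows for Ly6e. With windows of 100 bases the shares were 15.3% for Ly6c1 and 15.8% for Ly6c2, and 0 of 720 windows for Ly6a. Coding identity was 81.8% between Ly6a and Ly6c1 and 53.5% between Ly6a and Ly6e. The counts of Ly6c1 and Ly6c2 are therefore uncertain where the counting could split shared reads, while those of Ly6e are not touched by this.

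Total counts lay between 18167053 and 22502804 reads per library. Smarcd2, the targeted gene, stood at 198.3 ± 6.25 CPM in the WT group against 58.2 ± 0.749 CPM in the KO group (SD, n = 3 each), with no overlap between libraries; the reads left in KO were 0.293 times the WT level, and no source used here says what the knockout removes. CPM are read counts divided by the library size, which was adjusted by TMM, on the usual scale of this unit. The Treg markers Foxp3, Il2ra, Ctla4 and Cd4 were present in all 6 libraries. WT 1 and KO 2 had 0 reads of 4 Y-linked genes. In the other 4 libraries these genes summed to 143 (WT 2), 242 (WT 3), 301 (KO 1) and 450 CPM (KO 3), here on library totals without TMM. Libraries with and without these reads cannot be repeats of 1 RNA sample. Values for the members are also given without WT 1 and KO 2. Over all 13602 genes tested 6.45% were called changed, 3.2% lower and 3.25% higher in KO, and the median log2 fold change was 0.00.

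The KO libraries lay below all WT libraries for all 4 genes, and 3 of them, Ly6a, Ly6c1 and Ly6e, passed the test as lower in KO. Of all genes tested, 13% had every KO library below every WT library and 3.2% were called lower. The 4 members passed the filter on low counts. The median log2 fold change of the members was -0.57. The genes were selected with earlier results of these data known, so these counts are a description of the group.

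**Figure D1:**
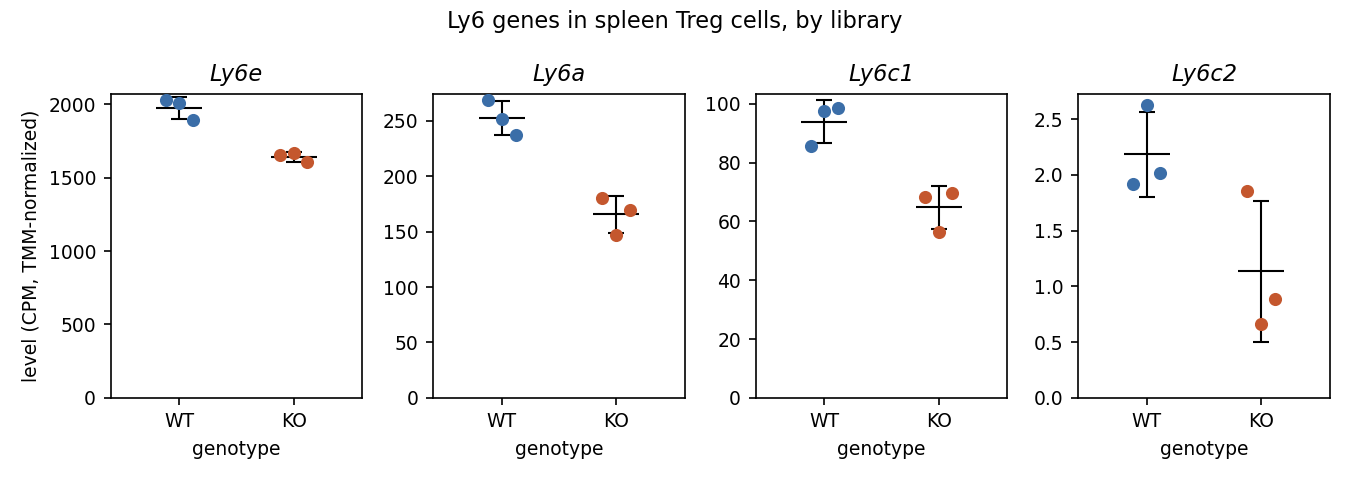
Level of each of the 4 genes by genotype in CPM after TMM scaling, with 1 point per library (n = 3 per genotype) and bars for the mean and SD; each panel has its own linear axis from 0. In all 4 panels the KO points sit below the WT points, with means of 1978 and 1643 CPM for Ly6e and of 2.18 and 1.13 CPM for Ly6c2.

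Ly6a, the Sca-1 gene, had 268.6, 251.9 and 237.5 CPM in WT 1, 2 and 3 and 180.4, 146.9 and 169.1 CPM in KO 1, 2 and 3. The highest KO library was below the lowest WT library, and KO 2 was the lowest of all. The mean fell from 252.7 ± 15.6 to 165.5 ± 17.1 CPM (SD, n = 3 each), which is 34.5% lower. The log2 fold change was -0.61 (SE 0.08, 95% interval -0.78 to -0.44, adjusted p = 0.00192, edgeR quasi-likelihood test, Benjamini-Hochberg adjusted across the 13602 genes). Without WT 1 and KO 2 the log2 fold change was -0.49 (edgeR adjusted p = 0.0156). Of the 2 libraries without Y-linked reads, WT 1 stood at 268.6 CPM and KO 2 at 146.9 CPM.

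Ly6c1, the more abundant of the Ly6C genes, had 85.6, 97.7 and 98.7 CPM in the WT libraries and 68.2, 56.3 and 69.8 CPM in the KO libraries. The groups did not overlap, and KO 2 was again the lowest library. The mean fell from 93.98 ± 7.30 to 64.8 ± 7.36 CPM (SD, n = 3 each), or by 31.1%. The log2 fold change was -0.54 (SE 0.09, 95% interval -0.73 to -0.35, edgeR adjusted p = 0.00677), and without WT 1 and KO 2 it was -0.51 (edgeR adjusted p = 0.0141). When the reads of Ly6c1 and Ly6c2 were added up, which removes any splitting between the pair, the log2 fold change was -0.55 (edgeR adjusted p = 0.00685).

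Ly6c2, the other Ly6C gene, was near the limit of what these libraries can show, with 35, 55 and 40 reads in WT and 37, 13 and 20 reads in KO. On the CPM scale these were 1.92, 2.62 and 2.01 in WT and 1.86, 0.661 and 0.883 in KO. The groups did not overlap, but KO 1 lay close to WT 1 while KO 2 and KO 3 were far below. The means were 2.18 ± 0.383 CPM in WT and 1.13 ± 0.636 CPM in KO (SD, n = 3 each), and the log2 fold change of -0.95 had a wide interval, -1.76 to -0.14 (SE 0.36). It did not pass in edgeR (adjusted p = 0.175, unadjusted p = 0.0262). Without KO 1 the log2 fold change was -1.49 and passed (edgeR adjusted p = 0.0342), and without WT 1 and KO 2 it was -0.78 (adjusted p = 0.411).

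Ly6e had the highest level of the 4 genes and the smallest relative change. Its values were 2033, 2008 and 1893 CPM in WT and 1653, 1671 and 1605 CPM in KO, with 32885 to 42086 reads in a library. The spread within each genotype was narrow, and the groups were well apart. The mean fell from 1978 ± 74.3 to 1643 ± 34.4 CPM (SD, n = 3 each), or by 16.9%. The log2 fold change was -0.27 (SE 0.05, 95% interval -0.38 to -0.16, edgeR adjusted p = 0.0117). The call was lost without WT 1 (adjusted p = 0.0531), without WT 2 (adjusted p = 0.0635) and without the 2 libraries lacking Y-linked reads (adjusted p = 0.0903), at log2 fold changes of -0.25, -0.26 and -0.27.

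In order of level per length of annotated exons the genes stood as Ly6e, Ly6a, Ly6c1 and Ly6c2 in both genotypes. On the scale of CPM per kb, WT means were 522.7 for Ly6e, 209.7 for Ly6a, 56.0 for Ly6c1 and 0.797 for Ly6c2, and KO means were 434.2, 137.3, 38.6 and 0.414. No 2 neighbours in this order overlapped in any library. By CPM in WT, Ly6e ranked 26th among all tested genes and Ly6a 804th. The 4 genes together took 0.240%, 0.235% and 0.220% of the reads in WT and 0.188%, 0.191% and 0.186% in KO. Ly6e alone made up 84.8 to 85.1% of these reads in WT and 86.8 to 89.1% in KO.

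Ratios of reads within a library do not depend on library scaling and show whether the genes moved by unequal amounts. The log2 ratio of Ly6a to Ly6e was -2.92, -2.99 and -3.0 in WT and -3.20, -3.51 and -3.25 in KO. It was lower in every KO library than in any WT library, with a difference of -0.35 (p = 0.1, exact 2-sided permutation test, the smallest p that 3 against 3 libraries allow; 0.45 after adjustment over the 6 pairs). The ratio of Ly6c1 to Ly6e differed by -0.27, with overlapping groups (exact permutation p = 0.2, adjusted 0.45). The ratio of Ly6a to Ly6c1 differed by -0.07 (exact permutation p = 0.9, adjusted 0.9), and that difference lay between -0.15 and 0.04 when 1 library was left out. With 3 libraries a genotype, a p over 0.05 in this test does not show that genes moved alike. The 3 pairs that involve Ly6c2 gave exact permutation p-values of 0.3, 0.4 and 0.3, and their groups overlapped.

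**Figure D2:**
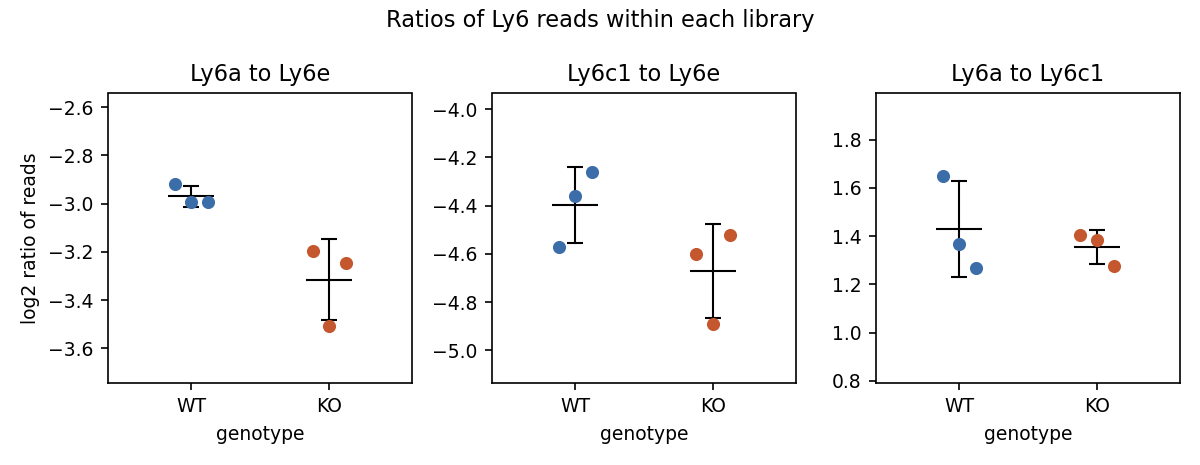
Log2 ratio of the reads of 2 members within each library, by genotype, with 1 point per library (n = 3 per genotype) and bars for mean and SD; the 3 panels span the same height on the log2 scale. The Ly6a to Ly6e ratio was lower in all 3 KO libraries than in any WT library, while the Ly6a to Ly6c1 ratio overlapped between the genotypes.

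Ly6c2 gave 2.19%, 2.62% and 2.0% of the reads of the 2 Ly6C genes in WT and 2.65%, 1.16% and 1.25% in KO. The exact Clopper-Pearson 95% intervals ran from 1.43% to 3.39% in WT and from 0.619% to 3.64% in KO and cover counting error only. The group means of 2.27 ± 0.316% and 1.69 ± 0.837% came from overlapping groups (difference -0.58 percentage points, exact permutation p = 0.4).

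The upstream sequences of the pair are shown because Ly6c1 and Ly6c2 are nearly identical in coding sequence and yet differed so widely in level. RefSeq (GRCm38.p6) held the 250 bases before the start of both on the minus strand, at chr15:75048838-75049087 for Ly6c1 and chr15:75111972-75112221 for Ly6c2. Aligned end to end, the windows were identical at 164 of 284 positions, or 57.7%. The 284 positions include gaps, because the 2 windows are offset against each other. The share therefore understates the likeness of the part that both windows hold. Capitals mark matches to 4 motifs searched on both strands, which are 2 GAAA blocks spaced by any 2 bases, the element of interferon regulatory factors, TTCNNNGAA of STAT factors, TGTGGT of RUNX factors and AGGAAG of ETS factors.

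Ly6c1: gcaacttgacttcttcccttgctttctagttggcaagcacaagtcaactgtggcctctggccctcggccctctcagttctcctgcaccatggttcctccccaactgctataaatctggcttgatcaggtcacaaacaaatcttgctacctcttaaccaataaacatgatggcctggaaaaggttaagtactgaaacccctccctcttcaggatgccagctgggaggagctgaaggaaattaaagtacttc
Ly6c2: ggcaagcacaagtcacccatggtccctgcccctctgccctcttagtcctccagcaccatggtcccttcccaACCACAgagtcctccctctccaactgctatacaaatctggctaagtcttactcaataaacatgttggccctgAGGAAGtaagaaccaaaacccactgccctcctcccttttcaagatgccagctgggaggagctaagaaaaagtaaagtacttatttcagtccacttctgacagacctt

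The Ly6c1 window held none of the 4 motifs and so has no capitals. The Ly6c2 window held 1 RUNX motif, 179 bases before the start on the other strand, and 1 ETS motif, 107 bases before the start. Among 32817 promoter windows of the same length, 14.0% held the RUNX motif, 29.5% the ETS motif, 7.01% the STAT motif and 2.97% the interferon regulatory factor motif. A match describes letters in the window, not a bound site.

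The rest of the Ly6/uPAR family was mostly silent in these cells. Of 40 other genes listed, 9 passed the filter on low counts and 31 did not, 20 of them with 0 reads in all 6 libraries. Among the 9, 1 gene, Ly6m, passed the test as lower in KO, 8 did not pass, and the median log2 fold change was 0.14. This 1 call is 11.1% of the 9, beside 6.45% called among all genes. Ly6m had 59, 35 and 39 reads in WT and 14, 24 and 13 in KO, and its mean was 2.29 ± 0.829 CPM in the WT group against 0.832 ± 0.342 CPM in the KO group (SD, n = 3 each). Its log2 fold change was -1.46 (SE 0.37, edgeR adjusted p = 0.0453), and the call was lost when any 1 of the WT libraries, KO 1 or KO 3 was left out (highest adjusted p = 0.187). Ly6d, a marker of early B cells and some thymocytes, had a log2 fold change of 0.88 (edgeR adjusted p = 0.212), and Ly6i one of 0.40 (adjusted p = 0.493). Cd59a, an inhibitor of complement, had a log2 fold change of -0.32 (edgeR adjusted p = 0.535). The values were 0.28 for Plaur, the urokinase receptor (edgeR adjusted p = 0.689), 0.18 for Lynx1 (0.620), 0.14 for Ly6k (0.843), -0.10 for Lypd6b (0.884) and -0.36 for Ly6g5b (0.567). The neutrophil antigen gene Ly6g had 7 reads in all, 5 of them in KO 1.

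**Figure D3:**
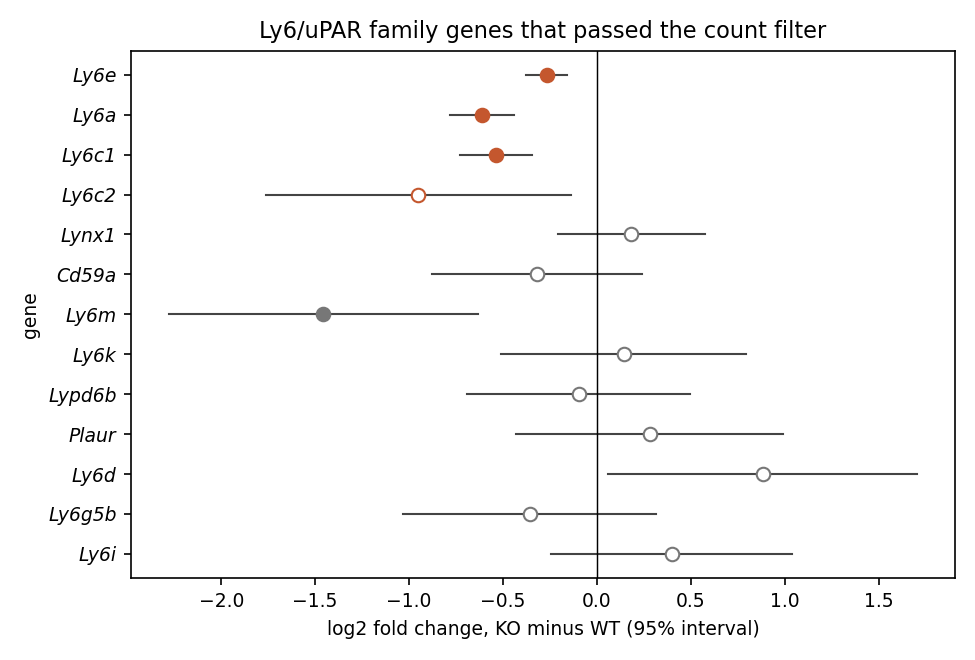
Log2 fold change (KO minus WT, 3 libraries each) with its 95% interval for the 4 members, in orange, and the 9 other Ly6/uPAR family genes that passed the count filter, in grey and ordered by WT level; filled points passed at an adjusted p under 0.05 in edgeR. The filled points are Ly6e, Ly6a, Ly6c1 and Ly6m, all left of 0.

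On chromosome 15, 52 other genes start within 500 kb of a member, and 9 of them passed the count filter. 2 of the 9 passed the test (22.2%, beside 6.45% of all genes). Both were lower in KO: Ly6m and Them6, the latter with a log2 fold change of -0.30 (edgeR adjusted p = 0.0386). The call of Them6 was lost when any 1 library was left out (adjusted p from 0.0688 to 0.144), without the 2 libraries lacking Y-linked reads (0.180) and in DESeq2 (adjusted p = 0.0805). Exons of Them6 overlap those of Slurp1 on the opposite strand, which had 3 reads. The other 7 did not pass, among them Arc (log2 fold change 0.29, edgeR adjusted p = 0.289), Jrk (-0.10, adjusted p = 0.824) and AC139671.1 (-0.23, adjusted p = 0.336). Of the 9, Ly6i, Ly6d, Ly6k, Lynx1 and Arc had log2 fold changes above 0, and Ly6m, AC139671.1, Them6 and Jrk had values below 0. Ly6i had only 15 to 25 reads in a library and Ly6d 12 to 55.

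**Figure D4:**
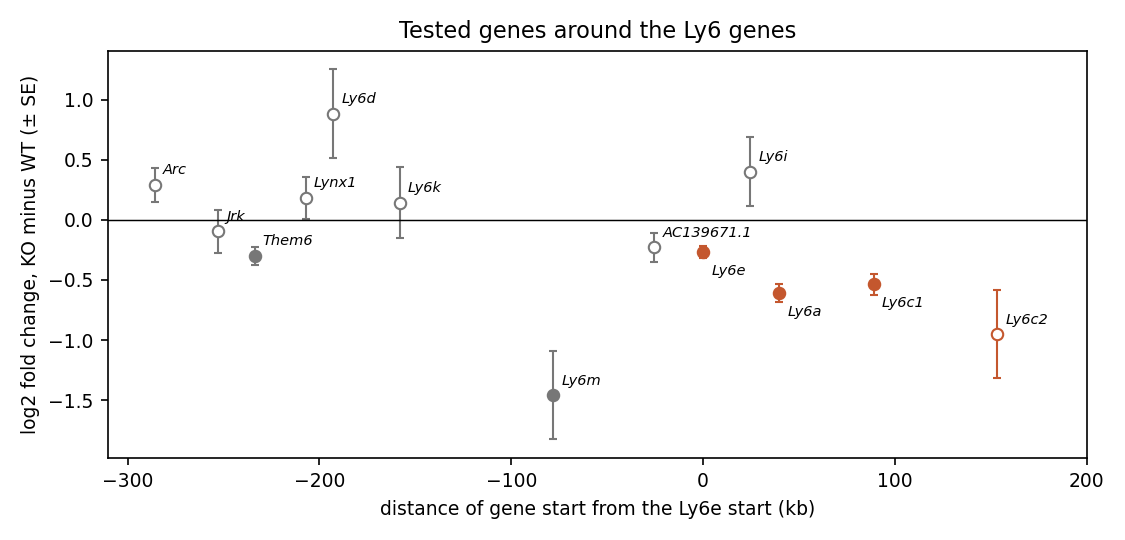
Log2 fold change (KO minus WT, points, with SE) of the tested genes around the Ly6 genes against the distance of the gene start from the lowest coordinate of Ly6e in kb; members are in orange, other genes in grey, and filled points passed at an adjusted p under 0.05 in edgeR. Ly6d and Ly6i lie above 0 and the 4 members and Ly6m below it.

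Since Ly6 genes are known interferon targets, their change was set beside that of interferon-stimulated genes. Of 63 tested genes of that list, 10 fell and 1 rose in KO, 52 did not pass, and the median log2 fold change was -0.19, beside 0.00 over all genes tested. That is 17.5% called, beside 6.45% of all genes. Isg20, an exonuclease that degrades viral RNA, fell from 56.6 ± 3.58 to 42.2 ± 2.90 CPM (log2 fold change -0.42, edgeR adjusted p = 0.00805). Oas2, an oligoadenylate synthetase, showed 17.3, 21.9 and 14.2 CPM in WT libraries against 10.4, 8.44 and 9.54 CPM in KO libraries (log2 fold change -0.91, edgeR adjusted p = 0.00871). Epsti1 had a log2 fold change of -0.27 (edgeR adjusted p = 0.0168), and Ifi27, the gene that rose, one of 0.28 (adjusted p = 0.0172). The calls of Isg20 and Oas2 were lost without the 2 libraries lacking Y-linked reads (adjusted p = 0.0877 and 0.0924), that of Epsti1 without any 1 of the WT libraries (highest adjusted p = 0.0805) and that of Ifi27 without WT 2, WT 3 or KO 2 (highest adjusted p = 0.0765). Without WT 1 or without WT 2 the list had 3 calls, without KO 2 it had 7, and without the 2 libraries lacking Y-linked reads edgeR gave 0 calls, with 21 of the 63 genes at an unadjusted p under 0.05. Calls over all genes dropped in the same settings. They went from 877 to 344 without WT 1, 344 without WT 2, 754 without KO 2 and 186 without the 2 libraries lacking Y-linked reads.

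The log2 fold change of Ly6c2, which did not pass, was near that of Oas2, the lowest of the 63 interferon-stimulated genes (-0.95 and -0.91), and their order turned with the libraries used (-0.70 and -0.84 without KO 2). 5 of the 63 were lower than Ly6a, 9 were lower than Ly6c1 and 23 were lower than Ly6e. Among all tested genes, 2.41% were lower than Ly6a, 3.18% lower than Ly6c1 and 9.18% lower than Ly6e.

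**Figure D5:**
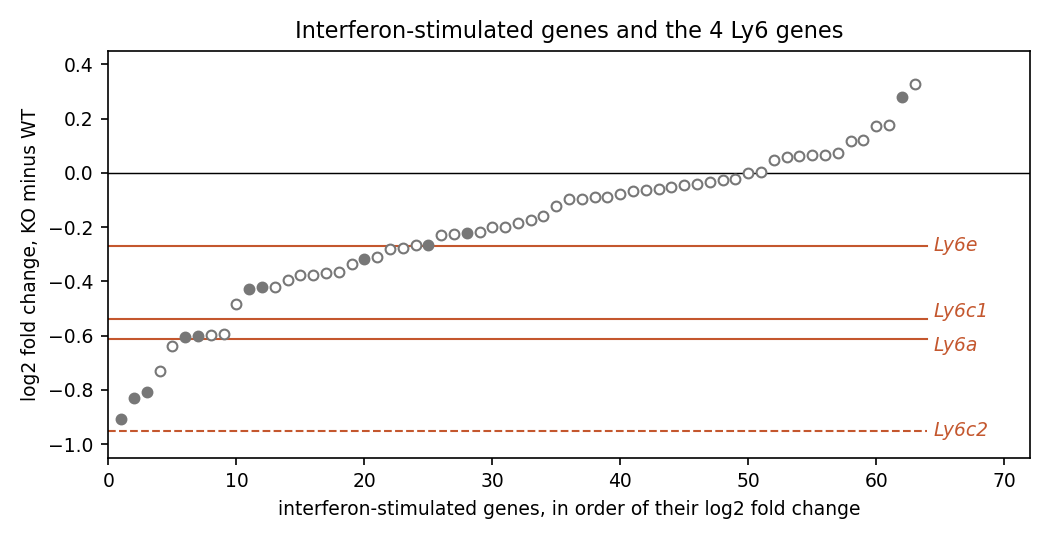
Log2 fold change (KO minus WT, 3 libraries each) of 63 interferon-stimulated genes in order of size, with filled points for those at an adjusted p under 0.05 in edgeR; orange lines mark the 4 members, dashed for Ly6c2, which did not pass. The lines of Ly6a and Ly6c1 lie at -0.61 and -0.54, below all but 5 and 9 of the 63 genes, and that of Ly6e lies at -0.27.

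Interferon receptors and their signalling genes did not fall together. Of 15 tested, 1 rose, 1 fell and 13 did not pass, with a median log2 fold change of 0.09 and a range from -0.50 to 0.24. That is 13.3% called, beside 6.45% of all genes. In edgeR 8 of the 15 had an unadjusted p under 0.05, and 6 of the 15 had log2 fold changes below 0. Ifngr1, the ligand-binding chain of the interferon gamma receptor, was higher in KO (log2 fold change 0.24, edgeR adjusted p = 0.0353), a call lost when any library except KO 3 was left out (highest adjusted p = 0.136). Socs3, a feedback inhibitor of cytokine signalling, showed 202.4, 229.6 and 202.4 CPM in WT libraries against 162.9, 171.3 and 177.0 CPM in KO libraries (log2 fold change -0.31, edgeR adjusted p = 0.0153), a call lost without WT 2 (adjusted p = 0.0682).

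Genes that build and attach the GPI anchor were examined because Ly6 proteins depend on it at the cell surface. Of 30 tested, 3 fell and 27 did not pass, and the median log2 fold change was 0.00. The share called was 10%, beside 6.45% of all genes. Piga, which encodes the catalytic subunit of the first step, had a log2 fold change of -0.48 (edgeR adjusted p = 0.0128), lost without WT 1 or WT 2. Pgap1, which remodels the anchor after attachment, had one of -0.35 (edgeR adjusted p = 0.0379), lost without any library except KO 2. Gpld1, a phospholipase that cleaves GPI anchors, had one of -1.11 (edgeR adjusted p = 0.00999), lost without WT 2, and its count is uncertain, since its exons overlap those of Mrs2 on the other strand. The highest adjusted p-values of these 3 with 1 library left out were 0.0671, 0.137 and 0.0565.

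Other GPI-anchored proteins of T cells gave 2 falls among 12 genes tested, with 10 not past the threshold and a median log2 fold change of -0.11. Calls made up 16.7% of this list and 6.45% of all genes. Both falls were at loci of the ADP-ribosyltransferase family. Art2a stands in the deposited table as Art2a-ps, and RefSeq classes it as a transcribed pseudogene in the reference genome. It showed 29.8, 29.2 and 21.1 CPM in WT libraries against 13.5, 14.2 and 10.1 CPM in KO libraries (log2 fold change -1.09, edgeR adjusted p = 0.00402), a call kept in all 11 alternatives computed. Art2b showed 311.1, 296.5 and 231.5 CPM in WT libraries against 225.6, 213.2 and 179.0 CPM in KO libraries (log2 fold change -0.44, edgeR adjusted p = 0.0459). That call did not hold under DESeq2 (adjusted p = 0.0638) or under limma-voom (0.0515 on the same scale), nor when WT 1, WT 2, KO 2 or KO 3 was left out (highest adjusted p = 0.180). The 2 loci are close paralogs, so reads could be split between them.

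Among 13 Treg identity genes 2 rose, 1 fell and 10 did not pass (23.1% called, beside 6.45% of all genes). Ikzf2, which encodes Helios, rose (log2 fold change 0.42, edgeR adjusted p = 0.00527), Nrp1 fell (-0.54, adjusted p = 0.000613) and Tnfrsf4, which encodes OX40, changed by 0.21 on the log2 scale (edgeR adjusted p = 0.0452), a call lost without any library except KO 1 (highest adjusted p = 0.190). Foxp3 did not pass (log2 fold change 0.10, edgeR adjusted p = 0.253).

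Cells other than Treg cells can also carry Ly6 antigens, so their markers were summed in each library. The 8 plasmacytoid dendritic cell markers summed to 241 to 301 CPM in WT and 171 to 212 CPM in KO. Most of this came from Pacsin1, Ccr9 and Bst2, with WT means of 101.5, 90.5 and 78.6 CPM and KO means of 75.2, 33.4 and 68.6 CPM. Bst2 is also among the interferon-stimulated genes listed above. Among the 4 that were tested, Ccr9 and Pacsin1 were called lower, and Tcf4 and Bst2 did not pass. Tcf4 was higher in KO without overlap between libraries (log2 fold change 0.40, edgeR adjusted p = 0.0926). Bst2 had a log2 fold change of -0.20 (edgeR adjusted p = 0.357). Siglech, a defining marker of these cells, had at most 1 read in any library. The 14 monocyte and macrophage markers summed to 157 to 181 CPM in WT and 99.3 to 245 CPM in KO, with 1 of 11 tested genes, Ccr2, called lower. Ccr2, at 106.5 to 135.8 CPM in WT and 71.6 to 97.6 CPM in KO, was most of the WT sum. The other 10 tested markers had log2 fold changes above 0, from 0.26 to 0.81, and 0 of them passed in edgeR, DESeq2 or limma-voom or had an unadjusted p under 0.05 in edgeR. Without Ccr2 the sum was 45.1 to 54.6 CPM in WT and 67.4, 147.8 and 26.1 CPM in KO 1, 2 and 3, so that 2 KO libraries lay above the WT range and 1 below it. The highest sum was in KO 2, where Ly6a, Ly6c1 and Ly6c2 were lowest, and without KO 2 the log2 fold changes were -0.54 for Ly6a and -0.45 for Ly6c1 (edgeR adjusted p = 0.00177 and 0.00754). The 10 NK and CD8 T cell markers summed to 31.4 to 35.7 CPM in WT and 26.9 to 30.8 CPM in KO. Prf1 and Klrb1c were called lower among 7 tested. Of the 6 tested besides Cd8b1, 3 had log2 fold changes above 0, up to 0.71 for Eomes (edgeR adjusted p = 0.0560). The 10 endothelial and stromal markers summed to 206 to 218 CPM in WT and 191 to 253 CPM in KO, nearly all of it from Pecam1; the other 9 summed to 2.37 to 2.96 CPM in WT and 2.43 to 3.91 CPM in KO, and Kdr, Col3a1 and Pdgfra were at 0 in all libraries. Neutrophil markers summed to 0.201 to 0.547 CPM in WT and 0.928 to 1.76 CPM in KO. Conventional dendritic cell markers summed to 2.19 to 2.72 CPM in WT and 2.87 to 5.69 CPM in KO. Both sums were low, and higher in every KO library than in any WT library. Ltf and Zbtb46, the only tested gene of each list, did not pass (edgeR adjusted p = 0.0884 and 0.0601). The 10 B cell markers, with Cd79b and Cd22 called in opposite directions among 3 tested, summed to 14.1 to 20.9 CPM. Erythroid markers summed to 1.05 to 3.83 CPM in WT and 0.707 to 13.7 CPM in KO, with the highest sum in KO 2. The part of such cells in the Ly6 values was not tested.

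For each member the 3 genes with the most similar pattern were found by the root mean square difference of centred log2 CPM over the 6 libraries, among 8340 genes whose mean reached 10 CPM (8341 for Ly6c2). Closest to Ly6a were Btbd11 (0.0660), Zfp827 (0.0737) and Ehd3 (0.0739), which encodes a protein of endosomal recycling. Closest to Ly6c1 were Prag1 (0.0710), Maml2 (0.0715), a coactivator of Notch, and Ldhb (0.0919), a lactate dehydrogenase subunit. Closest to Ly6e were Birc3 (0.0202), an inhibitor of apoptosis, Ssr1 (0.0239) and Prkca (0.0265), whose exons overlap those of Apoh on the opposite strand. Closest to Ly6c2 were Oasl1 (0.224), Lag3 (0.251) and Gbp2b (0.258); its own mean lies under 10 CPM. Between members the same measure was 0.127 for Ly6a and Ly6c1, 0.199 for Ly6c1 and Ly6e, 0.200 for Ly6a and Ly6e, and 0.448 to 0.602 for pairs with Ly6c2. This is a description of 6 libraries that share their normalization.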

How the data were processed

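The deposited values are counts of reads per Ensembl gene in 6 libraries, whole numbers with unequal totals and so not normalized. Per the submitters' processing notes the build was mm10 and the tools were HISAT2 2.1.0, fastp 0.23.2, DESeq2 1.34.0 and Picard. The role of each tool, the read counter, its annotation and its use of strand were not given in the sources used here. Where strand is ignored, overlapping genes on opposite strands share reads. Besides Them6, Gpld1 and Prkca, exons of Ikzf2, Ly6k, Jrk and Oasl1 overlap those of another gene on the opposite strand. Exons of Nrp1, Maml2 and Zfp827 overlap those of another gene on the same strand. Spreadsheet software had turned 27 symbols into dates, which were restored from the gene identifier, and 6 listed symbols were matched through RefSeq gene numbers.

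Genes were kept by filterByExpr (minimum count 10, minimum total 15), which left 13602 of 24676 with a read. Counts were scaled by TMM and tested in edgeR 4.0.16 (R 4.3.3) by the quasi-likelihood F test over all 6 libraries, without a block; genes at an adjusted p (Benjamini-Hochberg) under 0.05 were called. The steps were tested on simulated counts. A count of 0 allows up to 3 counts, or 0.133 to 0.165 CPM, and intervals and floors cover counting error only. Chi-square per degree of freedom within a genotype was 5.03 to 13.3 over genes with at least 20 reads, so no libraries were merged. Exon lengths, coding sequences and overlaps came from GENCODE M21 (the same build), in which the 4 genes have the start and end of the table.

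Ratios between members were compared by exact permutation over libraries. Other settings tried were DESeq2 1.42.0, limma-voom (limma 3.58.1), scaling by RLE, by upper quartile or by library size alone, a minimum mean of 2 CPM or no low-count filter, the replicate number as a block, Y-linked CPM as a covariate, removal of 739 genes of other cells, sex and receptors, Ly6c1 and Ly6c2 summed, and each library left out. Leaving out WT 1 and KO 2 together, and all alternatives for the chromosomal neighbours and for named genes other than the members, were chosen after seeing the data.

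The members and gene lists were chosen with earlier results of these data known. The named genes are the members, Smarcd2, up to 4 called genes of each list by adjusted p (or the one with the smallest p), tested family genes and neighbours, and 3 genes most like each member, without Gm and Rik symbols. Ly6g and the genes named beside the sums of other cell types come from the lists and were picked after their values were seen. Slurp1, Mrs2, Apoh and I830127L07Rik are named for shared sequence only.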

Additional observations from a re-analysis of the deposited data

How the results depend on the processing

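All 71 values of the 4 members under the alternatives were below 0, and 65 of them kept their side of the threshold. Ly6a (-0.68 to -0.49) and Ly6c1 (-0.63 to -0.45) passed in edgeR, DESeq2 and limma-voom and in each of the 18 alternatives computed. Ly6e did not pass without the libraries lacking Y-linked reads (-0.27), and with 1 library left out it lay between -0.30 and -0.25. Ly6c2 passed with no filter on low counts (-0.96, adjusted p = 0.0338 in edgeR) and without KO 1 (-1.49, edgeR adjusted p = 0.0342). The summed reads of Ly6c1 and Ly6c2 passed as well (-0.55), a value counted under both genes among the 71. Ly6c1 gave 97.3 to 98.8% of the summed reads in each library, so that call does not speak for Ly6c2. With 1 library left out Ly6c2 lay between -1.49 and -0.70, and a filter at a mean of 2 CPM removed it. The count of changed genes was 877, and 1624 with no filter (812 in each direction), 344 to 848 with 1 library left out, and 186 without the libraries lacking Y-linked reads. Without those libraries the calls were 0 for other Ly6/uPAR genes, 0 for interferon-stimulated genes, 0 for interferon signalling, 0 for GPI synthesis, 1 for other GPI-anchored proteins and 0 for neighbours in edgeR, with 2 libraries per genotype; at an unadjusted p under 0.05 the lists with 0 had 1, 21, 7, 5 and 2 genes. With 1 library left out the calls were 0 to 1 for other Ly6/uPAR genes, 3 to 16 for interferon-stimulated genes, 0 to 2 for interferon signalling, 0 to 3 for GPI synthesis, 1 to 2 for other GPI-anchored proteins and 0 to 1 for neighbours. DESeq2 called 19 interferon-stimulated genes and 1 neighbour, and limma-voom 1 other GPI-anchored gene. With 1 library left out Ly6k lay between -0.17 (without KO replicate 3) and 0.30, and Jrk between -0.21 and 0.093 (without WT replicate 1). The cause of these shifts was not tested. The labels do not say whether replicate numbers pair the libraries. The correlations of deviations between same-numbered WT and KO libraries were -0.14, -0.05 and 0.15. Those between differently numbered libraries ran from -0.21 (WT 3 with KO 2) to 0.23 (WT 1 with KO 2). With 3 libraries a genotype these values cannot settle whether the libraries are paired. With the replicate block 738 genes passed, 19 interferon-stimulated genes, 0 other Ly6/uPAR genes and 0 neighbours (2 and 3 at an unadjusted p under 0.05); Ly6a, Ly6c1 and Ly6e kept their calls (Ly6e adjusted p = 0.0498). Ly6c2, at 13 to 55 reads a library, is limited by depth.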
